A study of Rattus norvegicus with 7 samples.

Results

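Nucleotide excision repair and lesion bypass were followed as a set of 37 genes listed by symbol for their roles, with earlier results of these data known, and 36 of them had a row in both expression tables, out of 17246 genes read. The other one, Ercc4, was not analysed here. All 36 passed the filter on low counts and were among the 13709 genes tested, so no member was lost for a low value. The tissue was the meibomian gland, an oil gland in the eyelid whose secretion covers the tears, from wild-type female Sprague-Dawley rats aged 3 months. There were 4 control libraries from rats labelled as receiving no treatment and 3 libraries from rats exposed to ultraviolet B light (UVB). The treated upper eyelids were shaved and irradiated at 300 mJ/cm2 for 5 min a day on 5 days before the glands were dissected. The labels do not say whether the controls were shaved, how long after the last exposure the tissue was taken, or that each library came from its own animal. The libraries held 20680237 to 28784941 counts each. The p-values measure only the spread between these libraries. The 4 controls are lettered a, b, c and d and the UVB libraries a, b and c, and a shared letter pairs nothing.

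Ultraviolet B joins neighbouring pyrimidines in DNA, and nucleotide excision repair removes the damaged stretch. In repair of the whole genome, XPC with its partners and the UV-DDB complex find the lesion. In transcription-coupled repair, a stalled RNA polymerase calls in ERCC6 (CSB) and ERCC8 (CSA). Both routes pass the lesion to TFIIH, which opens the helix, to XPA and RPA, which hold the site, and to the nucleases that cut on each side, after which the gap is filled and sealed. When a replication fork meets a lesion that was not repaired, RAD18 marks the sliding clamp PCNA and specialised polymerases copy past the damage. The comparison asked whether glands taken after repeated irradiation held different amounts of the transcripts for these steps.

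Of the 36 members, 1 was higher and 1 was lower after UVB at an adjusted p under 0.05 (edgeR quasi-likelihood test, Benjamini-Hochberg over all genes). The same rule called 13.0% of all genes tested, 6.3% higher and 6.74% lower. That background depended on the libraries and the fit. Leaving out control c lowered it to 6.27%, control d to 6.91%, UVB b to 7.57%, control b to 8.03% and UVB c to 8.47%. Leaving out UVB a gave 8.74% and leaving out control a 13.8%. It was 6.79% with log2(TPM + 1) on every gene above 0, and 17.1% under DESeq2. Between such fits the number of members passing moved too. The members' count is therefore not read as below the background. Rad18 rose by a log2 fold change of 0.64 and Xrcc1 fell by 0.39 on the log2 scale. The remaining 34 did not pass, and 5 of the 36 had an unadjusted p under 0.05, against 29.5% of all genes. The median log2 fold change was 0.0135 for the members and -0.0058 for all genes, and the median size regardless of sign was 0.086 and 0.16. In bulk tissue, fewer cells of a type and less RNA per cell cannot be told apart, and this holds for every value that follows.

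The promoters of both called members are shown first, with that of Polh, because Xrcc1 and Polh were the members whose promoter held the core recognised by nuclear respiratory factor 1 (NRF1). Each sequence is the 250 bases before the annotated start in the RefSeq promoter table of assembly GRCr8, 5′ to 3′ on the gene's strand, in lower case with matched motif letters in capitals. The authors' files use another build, so these positions belong to GRCr8 only. Rad18 lies on the minus strand (chr4:147376870-147377119), and Xrcc1 (chr1:89268939-89269188) and Polh (chr9:22275679-22275928) on the plus strand.
Rad18: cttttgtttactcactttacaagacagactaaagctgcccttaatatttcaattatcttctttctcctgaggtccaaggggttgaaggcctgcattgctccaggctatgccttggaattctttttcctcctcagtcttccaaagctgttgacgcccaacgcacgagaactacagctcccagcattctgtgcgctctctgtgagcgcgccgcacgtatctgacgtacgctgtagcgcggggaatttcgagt
Xrcc1: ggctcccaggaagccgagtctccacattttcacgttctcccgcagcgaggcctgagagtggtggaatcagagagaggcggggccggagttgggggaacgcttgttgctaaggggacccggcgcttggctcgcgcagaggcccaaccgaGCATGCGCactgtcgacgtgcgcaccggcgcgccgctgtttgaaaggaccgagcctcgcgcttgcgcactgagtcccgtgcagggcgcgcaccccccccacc
Polh: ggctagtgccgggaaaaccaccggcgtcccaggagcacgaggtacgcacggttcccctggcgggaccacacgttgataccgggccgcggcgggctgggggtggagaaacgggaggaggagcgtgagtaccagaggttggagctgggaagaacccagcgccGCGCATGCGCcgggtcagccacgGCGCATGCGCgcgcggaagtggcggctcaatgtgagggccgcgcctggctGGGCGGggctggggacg
The Rad18 window had a GC content of 49.6% and held none of the motifs searched. The Xrcc1 window (68.0% GC) held the NRF1 core GCATGCGC 102 to 95 bases before the start. The Polh window (71.6% GC) held that core on both strands at 90 to 81 and at 67 to 58 bases before the start, in overlapping copies, and a GC box 17 to 12 bases before it.

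Promoters were matched for 31 of the 36 members. Motifs were read on both strands, as exact letters except for the p53 site: the GC box GGGCGG, the CCAAT box CCAAT, the TATA box TATAAA, the NRF1 core, the cyclic AMP response element TGACGTCA, the AP-1 sites TGACTCA and TGAGTCA, the E2F sites TTTCCCGC, TTTGGCGC, TTTCGCGC and TTTGCCGC, and the p53 site, the 10-base unit of its binding element, read as a pattern that allows more than 1 letter at most positions. A GC box stood in 18 of 31 member promoters (58.1%) and in 30.5% of all 33469 promoters of the same length. That wider set was limited neither to the genes tested here nor to a single entry for each gene. The members were all expressed enough to be tested, so the sets are unlike. No share below is read as a trait of repair genes. A CCAAT box stood in 15 (48.4%, against 34.0% of all). The NRF1 core stood in 2 (6.45%, against 2.2%). The looser p53 pattern stood in 1, that of Gtf2h5 (3.23%, against 6.64%), and its share is not comparable with those of the exact motifs. None held the TATA box (12.9% of all promoters), an AP-1 site (4.05%), an E2F site (1.73%) or the cyclic AMP response element (1.59%). The median GC content was 58.0% in the members and 51.2% in all promoters. These matches describe letters in a window and are not measured binding.

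Transcript levels, compared between genes in TPM (the authors' length-corrected transcript abundance), differed widely between members that act in one complex. Rad23b, a partner that stabilises XPC, stood highest at 196 ± 19.5 TPM (SD, n = 4 controls). Ddb1, the adaptor of the UV-DDB complex, followed at 140 ± 1.22 TPM (SD, n = 4). Their damage-reading partners were far scarcer: Xpc stood at 9.85 ± 1.15 TPM (SD, n = 4) and Ddb2 at 5.49 ± 0.451 TPM (SD, n = 4). The ratio of Rad23b to Xpc ran from 16.5 to 27.4 in the controls and from 19.4 to 21.2 after UVB, within the control range. Control a alone set the upper end of that range. Controls b, c and d lay at 16.5 to 18.9, below every UVB library. The ratio of Ddb1 to Ddb2 ran from 24.1 to 28.6 in the controls and from 30.1 to 39.2 after UVB, so the groups did not overlap. This ratio was singled out after its values were seen and carries no test.

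TFIIH, a complex with a helicase core and a kinase module, showed a narrower range. Of its 10 subunit transcripts, 9 lay between 15.2 TPM (Gtf2h2) and 38.0 TPM (Gtf2h1) in the control means. Gtf2h4 was the exception at 2.98 ± 0.582 TPM (SD, n = 4). Among the scarcest members were Uvssa at 2.83 ± 0.281 TPM and Poli at 2.91 ± 0.443 TPM (SD, n = 4 each), and these, with Gtf2h4, could not be ordered beyond their spread. The bypass transcripts ran from Poli to Rev1 at 13.2 ± 1.20 TPM (SD, n = 4).

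**Figure D1:**
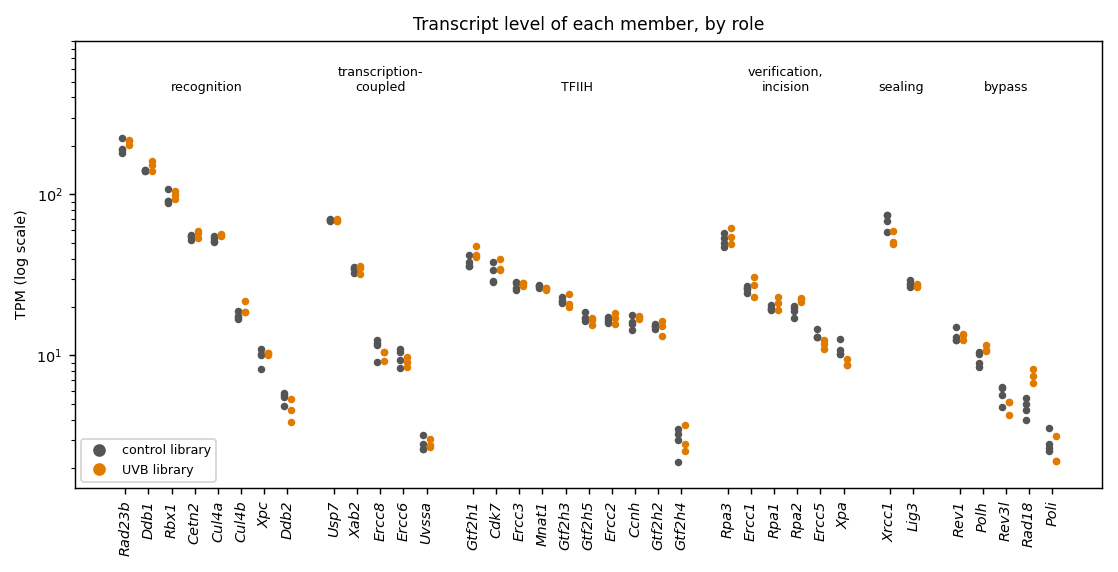
TPM (log scale) of the 36 members, grouped by role and ordered by control mean; grey points are the 4 control libraries and orange points the 3 UVB libraries. Rad23b and Ddb1 lie at the top of the recognition group and Ddb2 at its foot, while 9 of 10 TFIIH subunits sit between 15.2 and 38.0 TPM and Gtf2h4 at 2.98 TPM.

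For damage recognition in the whole genome, 0 of 8 members passed edgeR's threshold, which over so few genes is near the 13.0% of all genes, 0 had an unadjusted p under 0.05, and none passed under DESeq2 or limma-voom. In 7 of the 8 the log2 fold change was above 0, with a median of 0.069. The shares of all genes beside each role's counts were 13.0% called and 29.5% at an unadjusted p under 0.05. Over so few genes, no role's count is read as differing from these shares. From here on, levels across libraries are given in CPM, counts scaled to library size with the TMM factors that the test also used. Xpc, which senses the distorted helix, measured 18.8, 24.8, 22.5 and 23.0 CPM in the controls, in letter order, and 23.1, 23.2 and 23.4 CPM after UVB. Its log2 fold change was 0.060 (95% interval -0.16 to 0.28, adjusted p = 0.726). The UVB libraries sat within the control range, and control a was the lowest library of all.

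Ddb1 measured 364, 369, 357 and 365 CPM in the controls and 409, 400 and 361 CPM after UVB. UVB a and b were above every control and UVB c was within their range, for a log2 fold change of 0.10 (-0.043 to 0.24, adjusted p = 0.328). Ddb2, whose product binds the pyrimidine dimer itself, went the other way. It measured 5.69, 6.81, 6.11 and 6.67 CPM in the controls and 5.88, 4.61 and 5.09 CPM after UVB, with UVB b and c below every control and UVB a inside their range. The log2 fold change of -0.29 (-0.61 to 0.037) did not pass (adjusted p = 0.218). Counts of Ddb2 were not whole in any library, as happens when reads are divided between features, and it overlaps Acp2 in GRCr8. Its level is therefore uncertain.

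The other 5 recognition members lay within a narrow band. Log2 fold changes were 0.051 for the centrin gene Cetn2, 0.10 for Rad23b, 0.075 for Cul4a and 0.11 for Cul4b, the scaffolds of the ubiquitin ligase that UV-DDB directs, and 0.062 for its RING subunit Rbx1. Their adjusted p-values ran from 0.366 (Cul4b) to 0.687 (Rbx1). The summed level of the 8 recognition transcripts was 548 to 614 TPM in the controls and 603 to 619 TPM after UVB. Control a held the 614 TPM, and controls b, c and d lay at 548 to 565 TPM.

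Transcription-coupled repair gave 0 of 5 members past the threshold (edgeR, and likewise DESeq2 and limma-voom), with 1 at an unadjusted p under 0.05 and all 5 log2 fold changes below 0, at a median of -0.0165. The largest was that of Ercc8, the substrate receptor of the CSA ligase. It measured 13.5, 10.9, 12.0 and 12.8 CPM in the controls and 9.24, 10.9 and 9.79 CPM after UVB. UVB a and c were below every control and UVB b was level with control b. On the log2 scale the difference was -0.30 (95% interval -0.56 to -0.042) with an unadjusted p of 0.0271 and an adjusted p of 0.118. In TPM the groups overlapped, from 9.16 to 12.4 in the controls and 9.22 to 10.5 after UVB, and the log2(TPM + 1) fit gave -0.15.

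Ercc6, the translocase that reads the stalled polymerase, measured 29.8, 37.0, 37.5 and 33.2 CPM in the controls and 29.2, 32.4 and 34.2 CPM after UVB. Its groups overlapped and the log2 fold change was -0.11 (-0.32 to 0.11, adjusted p = 0.492). Uvssa, which brings the deubiquitinase USP7 to the stalled polymerase, measured 7.61, 7.51, 8.97 and 8.08 CPM in the controls and 7.54, 8.67 and 7.86 CPM after UVB. The log2 fold change was -0.0046 (-0.28 to 0.27, adjusted p = 0.986), and its sign changed in 8 of the 20 alternatives. Usp7 itself had a log2 fold change of -0.0165 with a narrow interval (-0.13 to 0.0996). Xab2, an XPA-binding protein, gave -0.0058 (-0.15 to 0.14), a sign that changed in 3 alternatives.

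TFIIH gave 0 of 10 members past the threshold under edgeR, DESeq2 and limma-voom, and 0 with an unadjusted p under 0.05, with a median log2 fold change of 0.0135. Ercc3 (XPB), the translocase that starts opening the helix, measured 41.9, 40.6, 44.1 and 44.8 CPM in the controls and 43.8, 45.3 and 42.5 CPM after UVB. Its log2 fold change was 0.034 (95% interval -0.11 to 0.18, adjusted p = 0.762). Ercc2 (XPD), the helicase that scans for the lesion, measured 33.4, 33.1, 34.1 and 32.9 CPM in the controls and 36.2, 34.5 and 30.5 CPM after UVB. UVB a and b were above every control and UVB c below every control, for 0.0135 (-0.15 to 0.18, adjusted p = 0.925). Counts of Ercc2 were not whole in any library.

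Among the other subunits, the core gene Gtf2h1 had the highest value, 0.19 (-0.0087 to 0.38, adjusted p = 0.187), and Gtf2h5 the lowest, -0.091 (-0.26 to 0.080, adjusted p = 0.461). In the kinase module, Cdk7 gave 0.16, its cyclin Ccnh 0.066 and the assembly factor Mnat1 -0.053. Mnat1 had the smallest spread among the controls of any member, at 20.4, 20.7, 20.6 and 21.0 CPM in the controls and 19.8, 19.8 and 20.2 CPM after UVB. Its groups did not overlap, although the difference was 3.64% and the adjusted p 0.658, and in TPM they did overlap. Gtf2h4 had the widest interval, 0.0135 (-0.48 to 0.51), with the fewest counts of any member (44 to 90 per library).

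**Figure D2:**
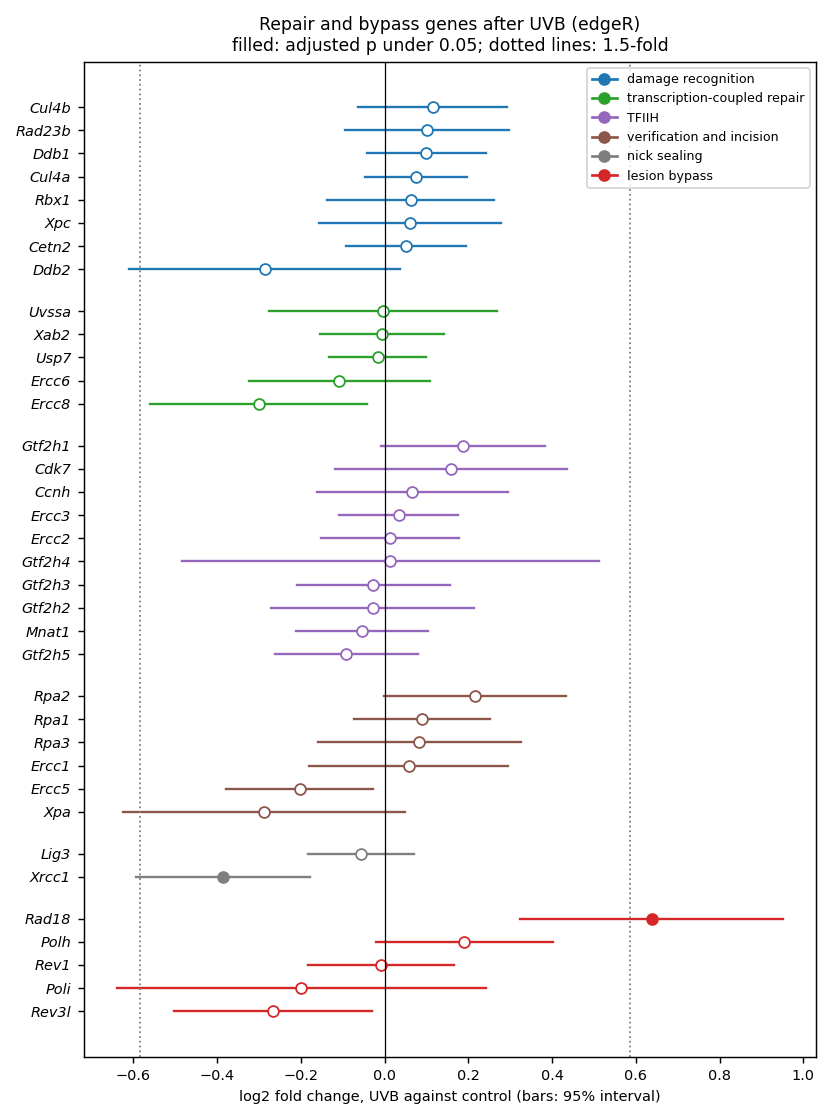
Log2 fold change of each member, UVB against control, with its 95% interval as a bar, by role; filled points passed an adjusted p under 0.05 in edgeR and the dotted lines mark 1.5-fold. Rad18 lies at 0.64 and Xrcc1 at -0.39, and 31 of the 36 intervals lie between the dotted lines.

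Genes that verify the lesion and cut the strand split in direction. None of the 6 passed the threshold (edgeR, DESeq2 and limma-voom), and 1 had an unadjusted p under 0.05. The median log2 fold change was 0.070. Ercc5 (XPG), the nuclease that cuts on the 3′ side, measured 30.1, 30.3, 32.9 and 30.5 CPM in the controls and 24.6, 29.0 and 27.0 CPM after UVB. Every UVB library was below every control, in CPM and in TPM. Its log2 fold change was -0.20 (95% interval -0.38 to -0.028), with an unadjusted p of 0.0276 and an adjusted p of 0.119.

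Xpa, which binds at the opened lesion and organises the incision complex, measured 4.95, 5.23, 4.80 and 6.11 CPM in the controls and 4.12, 4.65 and 4.16 CPM after UVB. The groups did not overlap in CPM or TPM, yet the log2 fold change of -0.29 (-0.62 to 0.048) had an adjusted p of 0.233. Xpa was covered by 87 to 143 counts per library and overlaps Ncbp1 in GRCr8. Ercc1, the partner of the 5′ nuclease ERCC4, measured 18.6, 18.1, 16.8 and 19.0 CPM in the controls and 21.0, 19.5 and 16.0 CPM after UVB. UVB a and b were above every control and UVB c below them, for 0.057 (-0.18 to 0.30, adjusted p = 0.761).

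RPA is the trimer that coats single-stranded DNA in repair and in replication, and all 3 of its transcripts had values above 0. Rpa2 measured 16.8, 15.5, 13.7 and 16.3 CPM in the controls and 17.2, 18.9 and 18.1 CPM after UVB. Every UVB library was above every control, but the log2 fold change of 0.22 (-0.0010 to 0.43) did not pass (adjusted p = 0.171). Rpa1 gave 0.089 and Rpa3 0.083, with adjusted p-values of 0.448 and 0.656 and overlapping groups.

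Of the 2 genes that seal the nick, 1 was lower and 0 higher. Xrcc1, the scaffold that brings DNA ligase III to a nick, fell. It measured 74.3, 93.8, 91.4 and 86.3 CPM in the controls and 72.9, 62.6 and 63.1 CPM after UVB. Every UVB library was below every control in CPM, by a small margin between UVB a and control a. In TPM those libraries crossed, at 59.4 for UVB a and 58.5 for control a. The means were 86.5 ± 8.69 CPM (SD, n = 4) and 66.2 ± 5.79 CPM (SD, n = 3), a fall of 23.5%. The log2 fold change was -0.39 (SE 0.093, 95% interval -0.59 to -0.18, edgeR adjusted p = 0.027). The call did not hold in 9 of 20 alternatives: library size alone (adjusted p = 0.0509), the 3 TPM fits (up to 0.0724) and 5 of the 7 fits that left out a library. In those 5, leaving out UVB b gave 0.0868, UVB c 0.0805, control c 0.0725, control d 0.0648 and control b 0.064. The direction held in all 20, from -0.46 to -0.34. Lig3, the ligase itself, measured 90.2 ± 3.98 CPM (SD, n = 4) in controls against 86.7 ± 0.184 CPM (SD, n = 3), and its difference of -0.056 on the log2 scale did not pass (adjusted p = 0.547). The ratio of Xrcc1 to Lig3 was 1.99 to 2.69 in the controls and 1.82 to 2.15 after UVB, so it overlapped.

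**Figure D3:**
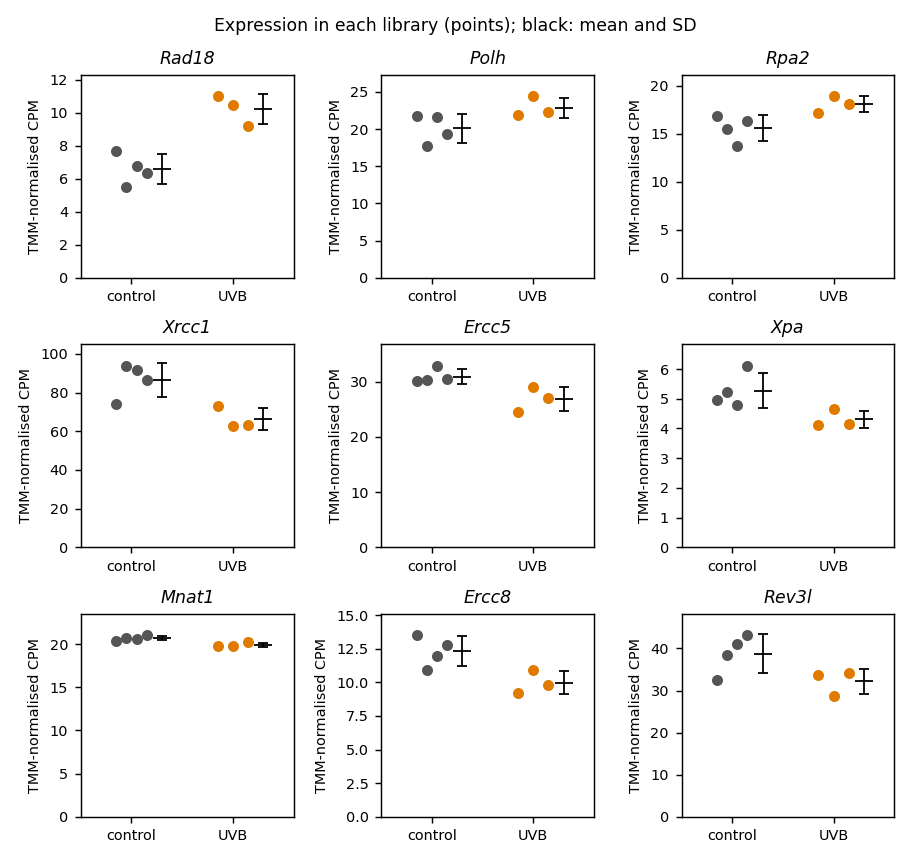
TMM-normalised CPM in each library for the called members, for the others whose groups did not overlap and for Ercc8 and Rev3l; grey points are controls, orange points UVB libraries, and the black mark is the mean with its SD. Rad18 lies between 5.51 and 7.66 CPM in controls and between 9.21 and 11.0 CPM after UVB, and the y axes start at 0.

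Lesion bypass held the other called member, 1 of 5 (2 at an unadjusted p under 0.05), with log2 fold changes from -0.27 to 0.64 and a median of -0.0091. Rad18, the ubiquitin ligase that marks PCNA at stalled forks, measured 7.66, 5.51, 6.80 and 6.32 CPM in the controls and 11.0, 10.5 and 9.21 CPM after UVB. Every UVB library was above every control, in CPM and in TPM. The means were 6.57 ± 0.898 CPM (SD, n = 4) and 10.2 ± 0.937 CPM (SD, n = 3), which is 55.6% higher. In edgeR the log2 fold change was 0.64 (SE 0.14, 95% interval 0.32 to 0.95, edgeR adjusted p = 0.020). It passed in all 13 alternatives that kept every library. It did not pass in 4 of the 7 fits that left out a library: without UVB a (0.58, adjusted p = 0.0569), UVB b (0.63, 0.0543), control c (0.65, 0.0512) or control d (0.62, 0.0551).

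Polh, the polymerase that copies past cyclobutane dimers, measured 21.7, 17.7, 21.6 and 19.3 CPM in the controls and 21.9, 24.4 and 22.3 CPM after UVB. The UVB libraries were above every control by a small margin, and the log2 fold change of 0.19 (-0.022 to 0.40) did not pass (adjusted p = 0.212). Its counts were not whole in 6 of the 7 libraries. The ratio of Rad18 to Polh in TPM was 0.472 to 0.535 in the controls and 0.630 to 0.756 after UVB, a description with no test.

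Rev3l, the catalytic subunit of the extending polymerase zeta, measured 32.4, 38.5, 41.1 and 43.1 CPM in the controls and 33.7, 28.8 and 34.2 CPM after UVB. All UVB libraries were below controls b, c and d, and control a lay among them. The log2 fold change was -0.27 (95% interval -0.50 to -0.030, unadjusted p = 0.0311, adjusted p = 0.127), and it passed only without control a (-0.34, adjusted p = 0.0353). Rev1, the scaffold polymerase that other bypass polymerases dock on, measured 32.2, 33.0, 37.2 and 31.7 CPM in the controls and 31.3, 34.5 and 34.2 CPM after UVB. Its log2 fold change was -0.0091 (-0.18 to 0.17, adjusted p = 0.953), with a sign that changed in 2 alternatives. Poli, a relative of Polh, gave -0.20 with an interval of -0.64 to 0.24 and 79 to 105 counts per library.

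The intervals show how small a change the 7 libraries could resolve. For 31 of the 36 members the 95% interval lay inside 1.5-fold in both directions, which held for 63.3% of all genes tested. The exceptions were Rad18, Xrcc1, Ddb2, Xpa and Poli. The distance from the fold change to either end of the interval had a median of 0.203 on the log2 scale and ran from 0.116 to 0.497. Counts were not whole in some libraries for 6 members, Ddb2, Rbx1, Ercc2, Mnat1, Lig3 and Polh. The use of strand in counting was not stated, and in GRCr8 other protein-coding genes overlap Rad23b (LOC120103069), Ercc3 (LOC120098222), Ddb1 (Tkfc), Ercc1 (Polr1g), Ercc2 (Klc3), Lig3 (Rffl), Poli (Stard6), Gtf2h3 (Eif2b1) and Mnat1 (Six4 and Trmt5), so reads of such pairs may be mixed. No annotated gene overlaps Rad18 or Xrcc1. Groups did not overlap in CPM for 7 members, 3 above and 4 below the controls, against 26.6% of all genes.

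Other genes of the same pathways were read from a wider list. Of 49 further genes listed, 45 were tested, and 2 were higher and 0 lower (edgeR), with 10 at an unadjusted p under 0.05 and a median log2 fold change of 0.074. Of all genes, 6.3% were called higher, 6.74% lower and 29.5% had such an unadjusted p. Both called genes were subunits of the clamp loader that sets PCNA on DNA. Rfc4 measured 13.6, 14.1, 13.5 and 14.2 CPM in the controls and 18.7, 18.0 and 16.9 CPM after UVB, a log2 fold change of 0.36 (SE 0.084, adjusted p = 0.0234). Rfc5 measured 27.2, 23.8, 24.1 and 23.8 CPM in the controls and 29.4, 32.3 and 28.5 CPM after UVB, a log2 fold change of 0.28 (SE 0.081, adjusted p = 0.0475). In each, every UVB library was above every control. Pcna, the clamp that RAD18 modifies, gave 0.061 (SE 0.10, adjusted p = 0.735) with overlapping groups. The 15 recognition partners and the 15 bypass partners gave no call with edgeR, with 0 and 6 at an unadjusted p under 0.05.

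Cell cycle genes were read beside Rad18, Rfc4 and Rfc5. Of 26 tested, 14 were higher and 0 lower (edgeR), against 6.3% and 6.74% of all genes tested. Their median log2 fold change was 0.55. Their summed level was 328 to 371 TPM in the controls and 462 to 622 TPM after UVB. No gene of that list was at 0 in any library. The part of the cell cycle genes in the values of Rad18 was not tested. The factor p53 is activated by damage, and XPC, DDB2 and POLH are known targets of it in human cells. Of 18 tested targets of p53, 3 were higher and 0 lower, against the same shares of all genes, at a median of 0.10. The higher genes were Phlda3 (0.45, SE 0.084, edgeR adjusted p = 0.0113), Ccng1 (0.33, SE 0.072, adjusted p = 0.0201) and Pmaip1 (0.97, SE 0.27, adjusted p = 0.0453). The cell cycle inhibitor gene Cdkn1a gave 0.16 (SE 0.11, adjusted p = 0.367).

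**Figure D4:**
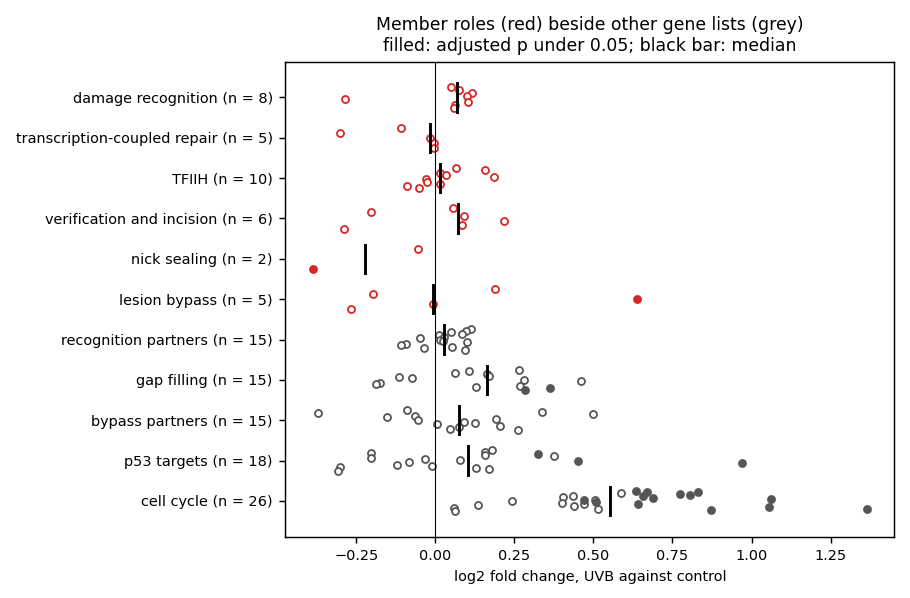
Log2 fold change of single genes, UVB against control, for the 6 roles of the members (red) and for 5 further lists (grey); filled points passed an adjusted p under 0.05 and the black bar is the median. The member roles centre near 0 apart from the 2 sealing genes, and the cell cycle list centres at 0.55.

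The identity of the tissue and its other cells was read from marker lists. Beside the calls in each list stand 6.3% higher and 6.74% lower over all genes tested. Meibocyte markers were abundant in every library, summing to 46800 to 56400 TPM in the controls and 42300 to 49200 TPM after UVB, with 3 of 10 lower and 0 higher. Epidermal keratinocyte markers summed to 10600 to 13200 and 13000 to 15300 TPM (1 of 8 higher). Fibroblast markers summed to 1040 to 1560 and 1300 to 2050 TPM (3 of 7 higher, 1 lower), macrophage markers to 162 to 473 and 178 to 299 TPM (3 of 8 higher), and endothelial markers to 40.6 to 49.4 and 49.9 to 55.1 TPM (2 of 5 higher). T cell markers summed to 5.76 to 8.15 and 6.01 to 11.9 TPM (2 of 5 tested higher). Skeletal muscle markers summed to 2150 to 3000 and 1430 to 2600 TPM (1 of 6 lower), melanocyte markers to 78.4 to 142 and 60.3 to 68.8 TPM (3 of 6 lower), and Schwann cell markers to 137 to 166 and 103 to 121 TPM (2 of 6 lower). No marker found in the TPM table was at 0 in any library. Each sum follows its most abundant markers, so it need not move with the calls. In the macrophage list the most abundant marker alone had a control mean of 164 TPM. The part of these cells in the values of Rad18 and Xrcc1 was not tested.

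Both calls were followed through every alternative. Of the 34 other members, 33 passed in none of the 20 alternatives, the exception being Rev3l. The direction held in all alternatives for 26 of the 36 members.

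**Figure D5:**
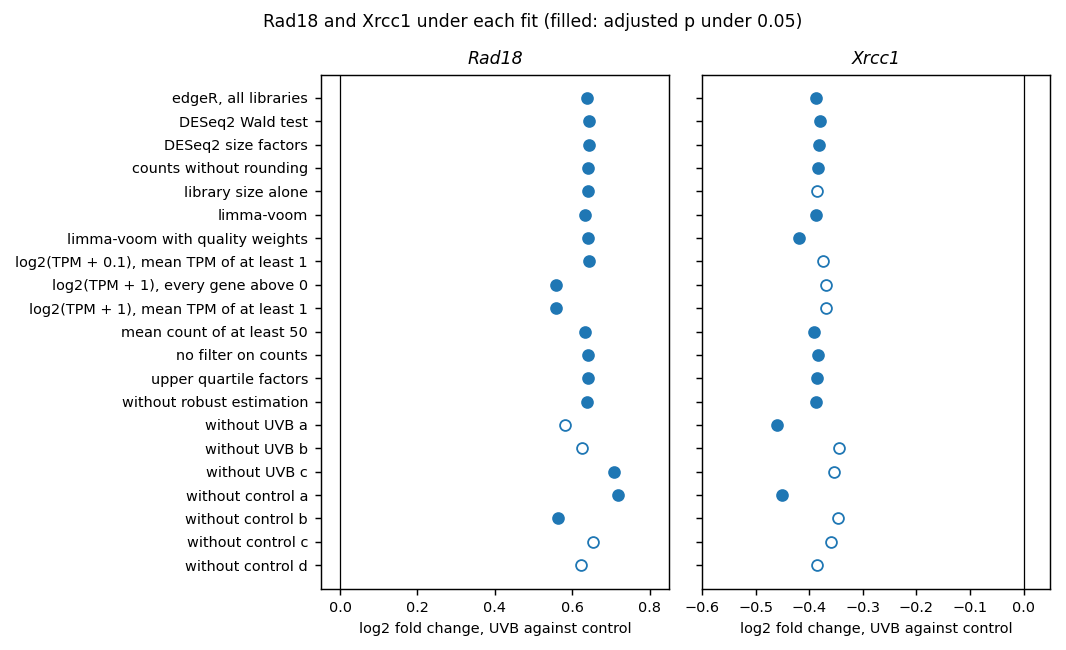
Log2 fold change of Rad18 (left) and Xrcc1 (right), UVB against control, under the edgeR fit of all libraries and 20 alternatives, 7 of which leave out a library; filled points have an adjusted p under 0.05. Rad18 runs from 0.56 to 0.72 and Xrcc1 from -0.46 to -0.34.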

How the data were processed

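RNA sequencing had been done on 4 control and 3 UVB libraries, each a separate column. The authors deposited expected counts (estimated counts per gene, not normalised) and TPM values. The submitters' processing notes name FastQC, Trimmomatic, DRAGEN, Picard and the build rn7, without roles or versions; the annotation and the use of strand are not given in the sources used here. Commas in gene names shift cells, and counting back from each row's right end recovered its 7 values. Of 17251 rows, 5 without 7 values were left out, which left 17246 genes. Of the count values, 12.5% were not whole. Library totals ran from 20680237 to 28784941 counts. Within groups, pairs of libraries differed by more than sampling noise (chi-square per degree of freedom of at least 10.9), so none was taken for a library deposited more than once. This does not show that they came from separate animals.

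After rounding, edgeR 4.0.16 under R 4.3.3 was run on the counts with its robust quasi-likelihood test, TMM factors and filterByExpr, with Benjamini-Hochberg adjustment over 13709 genes and a two-sided threshold of 0.05. The SE is the absolute log2 fold change over the square root of F, and the 95% interval uses the t quantile at the fit's degrees of freedom. The fits were tested on simulated counts. The alternatives used DESeq2 1.42.0, limma 3.58.1 (voom, and TPM with a pseudocount of 1 or 0.1), other scalings and filters, and leaving out each library.

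The members and lists were chosen with earlier results of these data known. Values in every library are given for called members, for members whose groups did not overlap at an unadjusted p under 0.05, and for fixed genes of each role. Other lists are named only for called genes, at most 4 a list, with Pcna, Cdkn1a and the uncalled clamp loader subunits Rfc1, Rfc2 and Rfc3. Mnat1, Rpa2, Rfc1, Rfc2 and Rfc3 were added after their values were seen. Of 206 listed symbols, 18 were not analysed here and 3 matched through another symbol. Promoters were matched by gene ID.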

Additional observations from a re-analysis of the deposited data

Results flagged for a closer look

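Each of the 36 members was examined for a single control lying apart, and 2 were found, a rate that chance alone gives in about 1 in 20 genes (1.8 here). For Gtf2h1, a core subunit of TFIIH, it was control a, at 71.4 CPM when the rest lay at 60.9 to 62.5 CPM, which put 0.847 of the whole range into that gap. Leaving that library out moved its log2 fold change from 0.19 to 0.25 (edgeR adjusted p = 0.0774). For Ercc5, the 3′ nuclease, it was control c, at 32.9 CPM when the rest lay at 30.1 to 30.5 CPM, with 0.841 of the range in the gap. The UVB group, with 3 libraries, was not examined.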

How the results depend on the processing

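No paired analysis was possible because no column name holds a replicate number. The sample labels do not say that a shared number pairs a control with a UVB library, so the groups were compared as unpaired. The number of members past the threshold (2) was 1 with library size alone and under each of the 3 TPM fits, where the number lower was 0. Of the other pathway genes, 1 passed in place of 2 under the 3 TPM fits and without a filter on counts. Across the fits that left out one replicate, the number of members ran from 0 to 3 (0 to 1 higher, 0 to 2 lower) and of other pathway genes from 0 to 3. The median log2 fold change ran from 0.0002 to 0.0503 for all members, from 0.0598 to 0.0978 for recognition and from -0.0109 to 0.0932 for verification and incision in those fits. Sign changes, all without a call, were Uvssa under DESeq2 (0.0012), DESeq2 size factors (0.0002) and the TPM fits (0.0017 with a pseudocount of 0.1, 0.0007 for the others), Xab2 under DESeq2 (0.0011) and Ercc2 under limma-voom with quality weights (-0.0078). Leaving out libraries gave ranges that crossed 0 for Ercc1 (-0.0276 to 0.1628), Ercc2 (-0.0392 to 0.0819), Gtf2h2 (-0.1122 to 0.0572), Gtf2h3 (-0.0955 to 0.0262), Gtf2h4 (-0.1587 to 0.1184), Rev1 (-0.0326 to 0.044), Usp7 (-0.0267 to 0.0027), Uvssa (-0.0604 to 0.0525), Xab2 (-0.0533 to 0.046) and Xpc (-0.0098 to 0.1141). The all-gene median stayed within 0.01 of 0 in every alternative. Gtf2h4, Poli and Xpa had the fewest counts of the members and the largest SEs (0.22, 0.20 and 0.15 in edgeR). The part of depth in those SEs was not tested.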

Other observations

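Control a was the highest or the lowest of the 4 controls in 25 of the 36 members, the highest in 18 and the lowest in 7. The same count was 17 for control b, 13 for control c and 17 for control d. In every gene some control must stand at each end. The count was made over the members only, not over all genes, and is not read as a trait of these genes. Control a was the lowest control for Xpc, Xrcc1, Ercc6 and Rev3l and the highest for Rad18, Rad23b, Rbx1, Cdk7 and Ercc8. Without it, the log2 fold change of Rad23b was 0.18 in place of 0.10 and that of Rbx1 0.14 in place of 0.062, neither of which passed. These genes were named after their values were seen.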
